A study of Mus musculus with 8 samples.

Results

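A set of 48 genes that carry cells through mitosis was followed in mouse embryonic fibroblasts (MEFs) with and without glucose. The genes were taken by name: the cyclins and kinases of entry into mitosis, the chromosomal passenger complex, the spindle checkpoint, the kinetochore, mitotic kinesins, cytokinesis, condensin, the exit from mitosis and the transcription factor Foxm1. All 48 were found among the 49492 rows of the expression table, and all 48 were among the 16232 genes that reached a value of 1 in 2 or more samples.

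A cell enters mitosis when CDK1, bound to cyclin B, phosphorylates a large number of targets. Chromosomes are then compacted by condensin, attached to the spindle through their kinetochores, and held until the spindle checkpoint allows CDC20 to switch on the anaphase-promoting complex (APC/C), a ubiquitin ligase that marks cyclin B and securin for destruction. Most genes of this programme are transcribed late in the cell cycle and kept low in resting cells, under control of the DREAM complex, B-MYB and FOXM1 acting through promoter elements such as the cell cycle genes homology region (CHR) and the CCAAT box bound by NF-Y, so their summed RNA also follows the share of cells that are dividing.

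RNA-sequencing was performed on 8 samples in 4 groups of 2: MEFs with wild-type Pontin (WT) or a mutant (RA) whose methylated arginines are replaced by alanine, each in normal medium or under glucose starvation. Both lines came from Pontin f/f MEFs immortalised by the 3T3 protocol, carried a lentivirus for the Flag-tagged form with hygromycin selection, and lost their own Pontin through Cre, so that all 4 groups share these steps. Starved cells were washed and then kept in medium without glucose and with dialysed serum, and the labels do not give for how long. The study's culture medium held serum not described as dialysed. Loss of glucose and the change of serum therefore cannot be told apart. Each form of Pontin is represented by a single stable line, so the line and the form of Pontin cannot be told apart, and the labels do not say whether replicates came from separate cultures. The study's methods state in general that experiments were repeated independently, but not how these 2 samples a group were made, so p-values may measure technical spread only.

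The deposited values are read counts relative to a library size that the authors scaled (CPM). Between 43205841 and 56363034 reads lay behind a sample, and the lowest count of any of the 48 genes in a sample was 161 reads, for Plk1. Ruvbl1, which encodes Pontin, was at 28 ± 0.58 and 28.2 ± 0.38 in normal and starved WT cells and at 34.4 ± 3.4 and 44 ± 1.5 in RA cells (SD, n = 2). These levels do not test the labels, because the mutant sequence differs in its codons only. Ruvbl1 was higher in RA than in WT in both media, so the amount of its RNA and the form of Pontin cannot be told apart. What part that amount had in the results was not tested. All 8 fibroblast markers were detected in every sample, with a summed value of 10879 to 10982 with glucose and 5561 to 5647 without it in WT, and 10811 to 11156 with glucose and 7320 to 7335 without it in RA. That sum was lower after starvation in both lines, as the mitotic genes were, and its part in their result was not tested. Of 4 haematopoietic markers none reached a value of 1, with a summed value of at most 0.314 and Cd3e at 0 throughout. The 4 epithelial markers summed to at most 1.25, with Krt5 and Krt14 at 0. The 4 endothelial markers summed to 2.52 to 3.39 with glucose and 8.92 to 9.43 without it in WT, and to 2.02 to 3.43 and 5.99 to 6.34 in RA, mostly from Kdr, while the defining Pecam1 and Cdh5 stayed under 1. In RNA from whole cultures, fewer mitotic cells and less RNA per mitotic cell cannot be told apart. The study reports that MEFs with a methylation-site mutant died earlier under glucose starvation than WT MEFs (RK in its text, RA in its legend). What part such cell loss had in the values was not tested.

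Promoter windows are shown for a few of the genes, because the genes fell together and share motifs. A RefSeq promoter (GRCm38.p6, 250 bases before to 50 after the start) was matched for 39 of the 48 genes by symbol. The CHR was searched as TTTGAA or TTCGAA and the NF-Y box as CCAAT, both on both strands and counted apart, so that a CHR and a CCAAT match may overlap; TTCGAA reads the same on both strands. The 6 windows shown first belong to Ccnb1, Ccnb2, Cdk1, Plk1, Aurka and Cdc20, which were picked by role, and those of Nek2 and Pttg1 follow because these genes fell least in WT, a choice made after their values were seen. Each runs from 120 bases before to 50 after the start, in the direction of the gene, with motif matches in capitals. The windows are chr13:100786437-100786606 for Ccnb1, chr9:70421505-70421674 for Ccnb2, chr10:69352863-69353032 for Cdk1, chr2:172370521-172370690 for Aurka, chr4:118437294-118437463 for Cdc20 and chr11:43425932-43426101 for Pttg1, all on the minus strand, and chr7:122159315-122159484 for Plk1 and chr1:191821353-191821522 for Nek2 on the plus strand.
Ccnb1: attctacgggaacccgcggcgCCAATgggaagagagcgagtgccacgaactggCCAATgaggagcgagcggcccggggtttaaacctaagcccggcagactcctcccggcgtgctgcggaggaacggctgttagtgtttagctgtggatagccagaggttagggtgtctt
Ccnb2: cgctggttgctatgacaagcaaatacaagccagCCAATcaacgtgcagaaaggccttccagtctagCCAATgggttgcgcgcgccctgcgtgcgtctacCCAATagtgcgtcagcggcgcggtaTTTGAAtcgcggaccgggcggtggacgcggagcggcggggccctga
Cdk1: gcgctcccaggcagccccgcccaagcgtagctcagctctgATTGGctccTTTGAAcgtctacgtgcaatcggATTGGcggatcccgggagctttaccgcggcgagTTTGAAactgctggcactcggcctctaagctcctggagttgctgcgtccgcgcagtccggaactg
Plk1: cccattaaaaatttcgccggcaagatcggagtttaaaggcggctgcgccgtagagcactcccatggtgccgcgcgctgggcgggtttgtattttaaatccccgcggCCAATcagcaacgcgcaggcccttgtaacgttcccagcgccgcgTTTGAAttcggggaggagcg
Aurka: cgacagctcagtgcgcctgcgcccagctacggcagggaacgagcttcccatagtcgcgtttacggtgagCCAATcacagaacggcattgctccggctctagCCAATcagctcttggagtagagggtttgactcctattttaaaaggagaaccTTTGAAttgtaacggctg
Cdc20: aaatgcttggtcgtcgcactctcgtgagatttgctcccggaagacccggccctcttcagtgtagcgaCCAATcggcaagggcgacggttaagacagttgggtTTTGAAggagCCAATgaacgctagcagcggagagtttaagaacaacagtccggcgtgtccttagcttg
Nek2: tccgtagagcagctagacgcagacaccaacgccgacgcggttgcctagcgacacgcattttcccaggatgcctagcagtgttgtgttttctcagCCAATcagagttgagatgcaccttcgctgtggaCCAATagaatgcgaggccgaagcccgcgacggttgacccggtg
Pttg1: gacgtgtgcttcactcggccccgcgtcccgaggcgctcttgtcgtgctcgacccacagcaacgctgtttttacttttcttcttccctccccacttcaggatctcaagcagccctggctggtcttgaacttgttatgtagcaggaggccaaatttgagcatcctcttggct

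Of these windows, those of Ccnb2, Cdk1, Plk1, Aurka and Cdc20 hold both motifs. Ccnb1 and Nek2 hold the CCAAT box 2 times and no match to the CHR letters, and Pttg1 holds neither. A CHR match was present in 31 of the 39 promoters (79.5%), against 21.7% of all 27025 genes with a promoter in the table and 16.7% of the 10351 that were also tested for expression. CCAAT was present in 30 of 39 (76.9%), against 41.1% of all genes and 43% of those tested. Both motifs were found in 27 of 39 (69.2%), against 8.61% and 7.15%. The CHR matches lay close to the start: 33 of 45 matches in promoters of these genes (73.3%) began within 50 bases of it, against 25.2% of matches in all promoters, while for CCAAT the shares were 35.7% and 28.2%. Birc5, Mad2l1, Nuf2, Ncaph and Pttg1 had neither motif in the window. A match is a description of the letters and does not show binding.

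**Figure D1:**
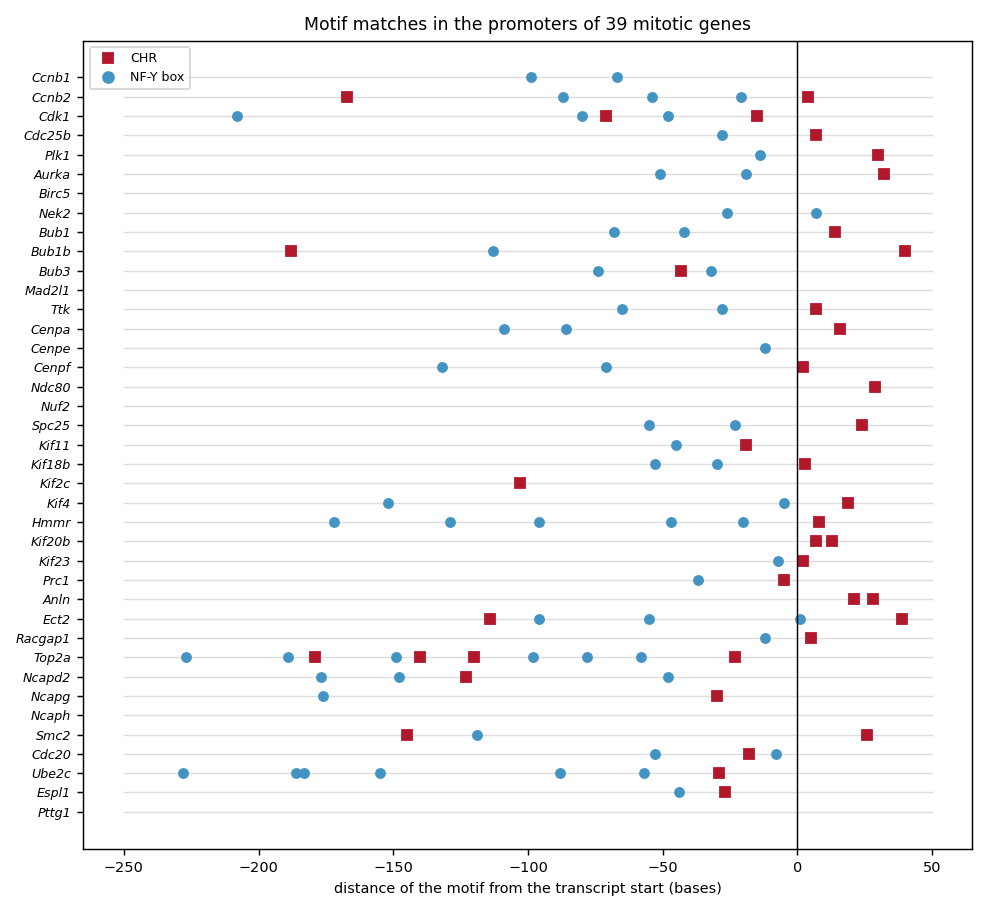
Distance in bases of each CHR match (red squares) and each CCAAT match (blue circles, NF-Y box) from the transcript start (vertical line) in the first listed RefSeq promoter of 39 mitotic genes; grey lines mark the 300 bases searched. Most red squares lie within 50 bases of the start, with the blue circles mainly upstream of them.

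Nearly the whole programme was lower under glucose starvation in both lines. In WT cells 47 of the 48 genes fell (97.9%, against 39.2% of all 16232 genes tested that fell and 39.3% that rose), and in RA cells 47 fell (97.9%, against 33.7% that fell and 35% that rose). Values were tested as log2(value + 1) with limma, and calls required an adjusted p (Benjamini-Hochberg, over all genes tested) under 0.05. The exception in both lines was Pttg1. At least a 2-fold fall was met by 44 of the 48 genes in each line, against 11.7% of all genes in WT and 4.58% in RA. The median log2 change of the 48 genes was -2.44 in WT and -1.84 in RA, where the median of all genes tested lay at 0.0049 and 0.0127.

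The fall was shallower in RA than in WT for most of the genes. The change in RA less the change in WT, tested as an interaction, was called above 0 for 41 of the 48 (85.4%, against 24.5% of all genes above 0 and 26.1% below) and called below 0 for Nek2 alone, with a median of 0.54 against -0.0107 over all genes. Falls of at least 2-fold were also rarer in RA over all genes, at 4.58% against 11.7% in WT. The share above 0 among all genes that fell as deeply in WT was not computed. Whether the shallower fall is particular to the 48 genes was therefore not tested. A difference of at least 2-fold was reached by 5 genes, Cenpa, Hmmr, Plk1, Top2a and Ccnb1, against 5.04% of all genes. At an adjusted p under 1e-05, 18 of the 48 were called, against 10.9% of all genes. In starved WT cells the median gene kept 17.5% of its normal level, and in starved RA cells 26.6%. A level under 20% of normal was seen for 26 genes in WT and 14 in RA. The share of all genes under that mark was not computed, so these counts only describe the 48 genes. For the 47 genes that fell in WT, the log2 fall in RA came to a median of 77.2% of that in WT, from 61.6% for Top2a to 174% for Nek2, and it exceeded the WT fall in 2 genes.

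Over the 48 genes the changes in the 2 lines, which share no samples, ran in nearly the same order, with Pearson's r of 0.944 and Spearman's rho of 0.941. These are correlations across genes, which are not independent replicates, and the points of each line share its 4 libraries. The same correlations over all genes tested were not computed, so the shared order is not shown to be particular to the 48 genes. Summed over the 48 genes, the values were 5861 and 5952 with glucose and 1204 and 1206 without it in WT, and 5501 and 5552 with glucose and 1598 and 1617 without it in RA. The sums of the groups did not overlap, and those of starved RA lay between those of starved WT and of the normal cells.

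**Figure D2:**
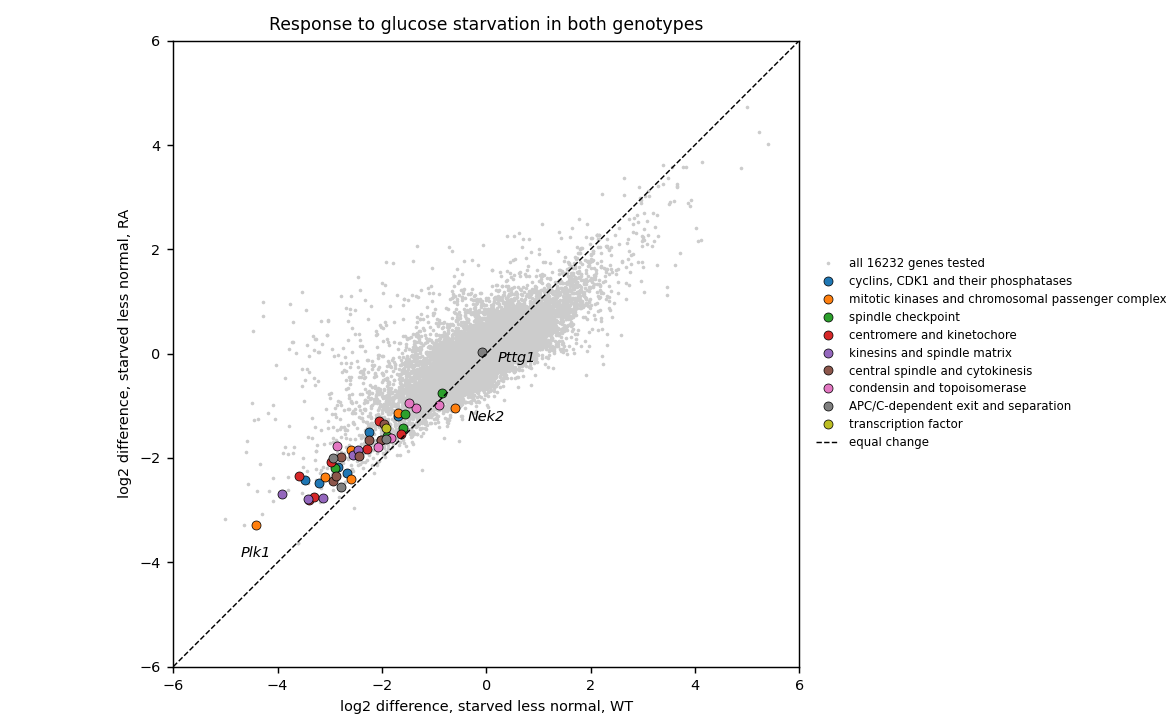
Log2 change from normal medium to glucose starvation in WT (horizontal) and RA (vertical) for all 16232 genes tested (grey) and the 48 mitotic genes (coloured by role); the dashed line marks equal change. Nearly all coloured points lie at the lower left and above the line, Nek2 lies below it and Pttg1 near 0 on both axes.

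The cyclins, CDK1 and the CDC25 phosphatases fell in both lines, all 6 of 6, and in all 6 the fall was shallower in RA. Ccnb1 encodes cyclin B1, the partner of CDK1 in mitosis. Its values were 195 and 201 with glucose and 16.4 and 17.2 without it in WT, and 195 and 190 with glucose and 35.4 and 35 without it in RA. The normal samples of the lines overlapped, and starved RA stood at about double the starved WT level, a ratio of 2.09. The level fell 11.8-fold in WT and 5.47-fold in RA, and the responses differed by 1.07 ± 0.063 on the log2 scale (SE, adjusted p = 5.03e-10). Cdk1, the kinase itself, was at 248 and 251 with glucose and 34.9 and 32.8 without it in WT, and 243 and 249 with glucose and 54.9 and 53.3 without it in RA. It fell 7.37-fold and 4.55-fold, a difference between the responses of 0.68 ± 0.06 (adjusted p = 8.03e-08). Cdc25c encodes a phosphatase that removes the inhibitory phosphates from CDK1. Its values were 28.1 and 26.7 with glucose and 7.65 and 7.82 without it in WT, and 21.9 and 23.8 with glucose and 9.26 and 9.52 without it in RA. No groups overlapped, and the fall was 3.54-fold in WT and 2.43-fold in RA, with a difference of 0.50 ± 0.11 (adjusted p = 0.00121). Of the others, cyclin B2 (Ccnb2) fell 10.4-fold and 5.95-fold, cyclin A2 (Ccna2) 6.56-fold and 5.01-fold, and Cdc25b 4.99-fold and 2.92-fold.

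Among the mitotic kinases and the chromosomal passenger complex, all 7 fell in both lines. Plk1, polo-like kinase 1, which acts at centrosomes, kinetochores and the cleavage furrow, showed the deepest fall of the 48 genes in each line. It was at 91.5 and 90.3 with glucose and 3.73 and 2.94 without it in WT, and 81.8 and 91.5 with glucose and 9.17 and 6.86 without it in RA. Its normal samples overlapped between the lines, and its starved samples did not. The level fell 27.3-fold in WT and 10.8-fold in RA, and the responses differed by 1.12 ± 0.15 (adjusted p = 9.72e-06). Aurkb, the kinase subunit of the passenger complex, was at 60.3 and 60.1 with glucose and 9.3 and 9.06 without it in WT, and 56.4 and 53.2 with glucose and 15.7 and 13.5 without it in RA. It fell 6.55-fold and 3.75-fold (difference 0.75 ± 0.099, adjusted p = 1.01e-05). Of its partners, Incenp, the scaffold, had a difference of 0.38 ± 0.068 (adjusted p = 0.000198), while Birc5 (survivin) had 0.19 ± 0.081 (adjusted p = 0.0629) and was not called. Aurka and its activator Tpx2, which act at the spindle poles, had differences of 0.71 ± 0.079 and 0.55 ± 0.055 (adjusted p = 1.21e-06 and 4.13e-07).

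Nek2, a kinase that releases the link between centrosomes, was the gene of the set that ran the other way. Its values were 44.4 and 47.6 in normal WT and 45.4 and 43.8 in normal RA, which overlapped, and 30.7 and 29.3 in starved WT and 21.6 and 20.6 in starved RA, which did not. The level fell 1.53-fold in WT and 2.11-fold in RA, and the difference between the responses was -0.45 ± 0.082 (adjusted p = 0.00025). In every fit tried this call and its sign were retained.

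All 5 spindle checkpoint genes fell in both lines, with median log2 changes of -1.59 in WT and -1.42 in RA. Bub1b encodes BubR1, which with Mad2 and Bub3 holds CDC20 inactive. It was at 119 and 124 with glucose and 15.4 and 15.1 without it in WT, and 113 and 115 with glucose and 22.4 and 26 without it in RA. The groups did not overlap, and it fell 7.93-fold and 4.7-fold (difference 0.72 ± 0.084, adjusted p = 2.36e-06). Mad2l1, which encodes Mad2, was at 86 and 89.6 with glucose and 29 and 27.9 without it in WT, and 89.6 and 87.1 with glucose and 32.8 and 31.8 without it in RA. It fell 3.09-fold and 2.73-fold, and the difference of 0.17 ± 0.068 (adjusted p = 0.049) was lost in 11 of 18 other fits, among them those without any 1 of WT normal replicates 1 and 2, WT starved replicate 2, RA normal replicate 2 and RA starved replicates 1 and 2 (0.14 to 0.20). Bub3 had values of 97.1 and 94.4 with glucose and 52.1 and 53.6 without it in WT, and 102 and 99.1 with glucose and 59.2 and 59.3 without it in RA. It fell 1.81-fold and 1.7-fold, with a difference of 0.09 ± 0.06 (adjusted p = 0.241). Ttk (MPS1), the kinase at the top of the checkpoint, was at 35.2 and 35.6 with glucose and 8.34 and 9.06 without it in WT, and 29.7 and 30.9 with glucose and 9.05 and 9.83 without it in RA. Its starved samples overlapped between the lines, and the difference of the responses was 0.33 ± 0.11 (adjusted p = 0.017). That call was lost in 5 of 18 other fits, among them those without WT normal replicate 2 (0.32), WT starved replicate 1 (0.27), RA normal replicate 1 (0.30) and RA starved replicate 2 (0.27). The kinase Bub1 had a difference of 0.41 ± 0.074 (adjusted p = 0.000221).

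The 7 centromere and kinetochore genes had median log2 changes of -2.97 in WT and -2.08 in RA. Cenpa encodes the histone H3 variant that marks centromeres, and it had the highest difference between the lines of the 48 genes. It was at 129 and 126 with glucose and 10.5 and 8.95 without it in WT, and 113 and 114 with glucose and 22.1 and 20.7 without it in RA. No groups overlapped; the level fell 13.2-fold in WT and 5.31-fold in RA, and the responses differed by 1.24 ± 0.088 (adjusted p = 6.28e-09). Cenpf, a large protein of the outer kinetochore, was at 58.6 and 56.2 with glucose and 4.69 and 4.38 without it in WT, and 52.3 and 48.9 with glucose and 6.07 and 6.69 without it in RA. It fell 12.6-fold and 7.93-fold (difference 0.59 ± 0.11, adjusted p = 0.000222). The kinesin Cenpe had a difference of 0.89 ± 0.072 (adjusted p = 3.3e-08).

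The NDC80 complex, which binds microtubules as a unit, had differences between the responses of 0.11 to 0.77 over its 4 subunits. Ndc80 was at 48.5 and 49.7 with glucose and 8.76 and 9.68 without it in WT, and 45.7 and 46.3 with glucose and 12.3 and 12.2 without it in RA. It fell 5.32-fold and 3.76-fold (difference 0.47 ± 0.094, adjusted p = 0.000563). Spc24 was at 22.1 and 22.2 with glucose and 6.79 and 6.07 without it in WT, and 20.7 and 20.1 with glucose and 6.15 and 6.65 without it in RA. Its starved samples overlapped, the falls were 3.45-fold and 3.19-fold, and the difference of 0.11 ± 0.12 was not called (adjusted p = 0.482). For its partner Spc25 the falls were 4.5-fold and 2.53-fold, with a difference of 0.77 ± 0.096 (adjusted p = 4.62e-06), and for Nuf2 11.7-fold and 7.61-fold (0.55 ± 0.12, adjusted p = 0.00106). Whether these subunits differed from each other was not tested.

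The kinesins and the spindle protein Hmmr made up the role with the lowest median log2 change, -3.13 in WT and -2.70 in RA, and all 5 were shallower in RA. Hmmr was at 101 and 98.7 with glucose and 5.89 and 5.44 without it in WT, and 90.8 and 89.9 with glucose and 12 and 14.2 without it in RA. No groups overlapped, and it fell 17.6-fold and 6.9-fold (difference 1.22 ± 0.099, adjusted p = 3.07e-08). Kif11 (Eg5) pushes the spindle poles apart. It was at 117 and 115 with glucose and 12.6 and 12.2 without it in WT, and 107 and 101 with glucose and 15.1 and 13.7 without it in RA. Its falls were 9.36-fold and 7.22-fold, and the difference was among the smaller ones at 0.36 ± 0.08 (adjusted p = 0.00146). Kif2c (MCAK), which depolymerises microtubule ends, was at 79.1 and 84.2 with glucose and 6.98 and 6.39 without it in WT, and 75.5 and 77.7 with glucose and 10.3 and 10.2 without it in RA. It fell 12.2-fold and 7.46-fold (difference 0.64 ± 0.09, adjusted p = 1.69e-05). Kif18b, which also acts at microtubule ends, was at 44.1 and 43.8 with glucose and 6.75 and 6.61 without it in WT, and 36.7 and 38.2 with glucose and 8.5 and 9.6 without it in RA. It fell 6.58-fold and 4.14-fold (difference 0.61 ± 0.11, adjusted p = 0.000135). Kif4, a chromosome-bound kinesin, had a difference of 0.60 ± 0.084 (adjusted p = 1.77e-05).

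All 7 genes of the central spindle and cytokinesis fell in both lines, and all 7 fell less in RA, with differences from 0.36 for Racgap1 to 0.80 for Prc1. Prc1 bundles the microtubules of the central spindle. It was at 139 and 147 with glucose and 19.5 and 20.5 without it in WT, and 138 and 140 with glucose and 34.3 and 34.4 without it in RA. The normal samples overlapped and the starved samples did not; it fell 7.17-fold and 4.04-fold (difference 0.80 ± 0.066, adjusted p = 4.34e-08). Kif20a (MKLP2), which carries the passenger complex to the central spindle, was at 287 and 279 with glucose and 34.3 and 38.3 without it in WT, and 256 and 275 with glucose and 47.7 and 48.4 without it in RA. It fell 7.8-fold and 5.52-fold (difference 0.49 ± 0.071, adjusted p = 2.55e-05), but 29.3% of its exon bases lie opposite those of the neighbour Cdc23, and how the counting treated strand is not stated. The centralspindlin subunits Kif23 and Racgap1, the exchange factor Ect2, the actin-binding Anln and the kinesin Kif20b had falls of 3.93-fold to 7.73-fold in WT and 2.57-fold to 5.27-fold in RA.

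All 6 genes of condensin and topoisomerase fell in both lines, with differences between the responses of -0.08 for Smc2 to 1.10 for Top2a. Top2a, the enzyme that untangles sister DNA, was at 321 and 337 with glucose and 45.2 and 43.2 without it in WT, and 292 and 298 with glucose and 84.8 and 87.4 without it in RA. No groups overlapped, and the fall was 7.45-fold in WT and 3.43-fold in RA (difference 1.10 ± 0.058, adjusted p = 1.19e-10). Smc4, an ATPase of the condensin core, was at 282 and 278 with glucose and 100 and 98.4 without it in WT, and 274 and 269 with glucose and 138 and 143 without it in RA. Its falls were 2.82-fold and 1.93-fold (difference 0.54 ± 0.052, adjusted p = 2.74e-07). Smc2, the other ATPase of the core, was at 142 and 141 with glucose and 75.7 and 75.2 without it in WT, and 135 and 125 with glucose and 62.9 and 68.1 without it in RA. Unlike Smc4, it was lower in starved RA than in starved WT, by a log2 difference of -0.20 ± 0.048 (adjusted p = 0.00142), while the falls of 1.87-fold and 1.99-fold differed by -0.08 ± 0.068 and were not called different (adjusted p = 0.319). Of the subunits particular to condensin I, Ncapd2 and Ncapg had differences of 0.29 ± 0.057 and 0.29 ± 0.072 (adjusted p = 0.000501 and 0.00287), and Ncaph had 0.20 ± 0.087 (adjusted p = 0.069).

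In the group that ends mitosis, 3 of 4 genes fell in both lines. Cdc20, the activator of the APC/C, was at 161 and 161 with glucose and 22.8 and 22.5 without it in WT, and 144 and 156 with glucose and 25.1 and 24.1 without it in RA. It fell 7.11-fold and 6.08-fold, with a difference of 0.22 ± 0.068 (adjusted p = 0.0129) that was lost in 3 of 18 other fits, including those without RA normal replicate 1 (0.16) and RA starved replicate 1 (0.19). Ube2c, a ubiquitin-conjugating enzyme that works with the APC/C, fell 7.93-fold and 4.11-fold and had the larger difference, 0.92 ± 0.071 (adjusted p = 1.57e-08). However, 22.8% of its exon bases lie opposite Tnnc2. Espl1, the protease separase, had a difference of 0.27 ± 0.086 (adjusted p = 0.0154), lost in 5 of 18 other fits, including those without WT starved replicate 2 (0.20), RA normal replicate 2 (0.20) and RA starved replicate 2 (0.21).

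Pttg1 encodes securin, the inhibitor of separase, and it was not called changed under starvation in either line. It was at 13.9 and 15.7 with glucose and 12.8 and 15.3 without it in WT, and 18.4 and 19.6 with glucose and 21 and 18 without it in RA. Normal and starved samples overlapped in each line, with log2 changes of -0.07 ± 0.095 in WT and 0.03 ± 0.095 in RA (adjusted p = 0.486 and 0.777). Instead it was higher in RA than in WT in both media, by 0.34 ± 0.095 in normal medium and 0.45 ± 0.095 under starvation (adjusted p = 0.0323 and 0.0006). In normal medium the call was lost in 5 of 19 other fits, including those without WT normal replicate 1 (0.26) and RA normal replicate 2 (0.30).

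Foxm1, the transcription factor of late cell cycle genes, moved with the set. It was at 146 and 147 with glucose and 39.1 and 37.1 without it in WT, and 135 and 137 with glucose and 49.9 and 50.2 without it in RA. The level fell 3.85-fold in WT and 2.72-fold in RA (difference 0.49 ± 0.06, adjusted p = 4.2e-06).

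**Figure D3:**
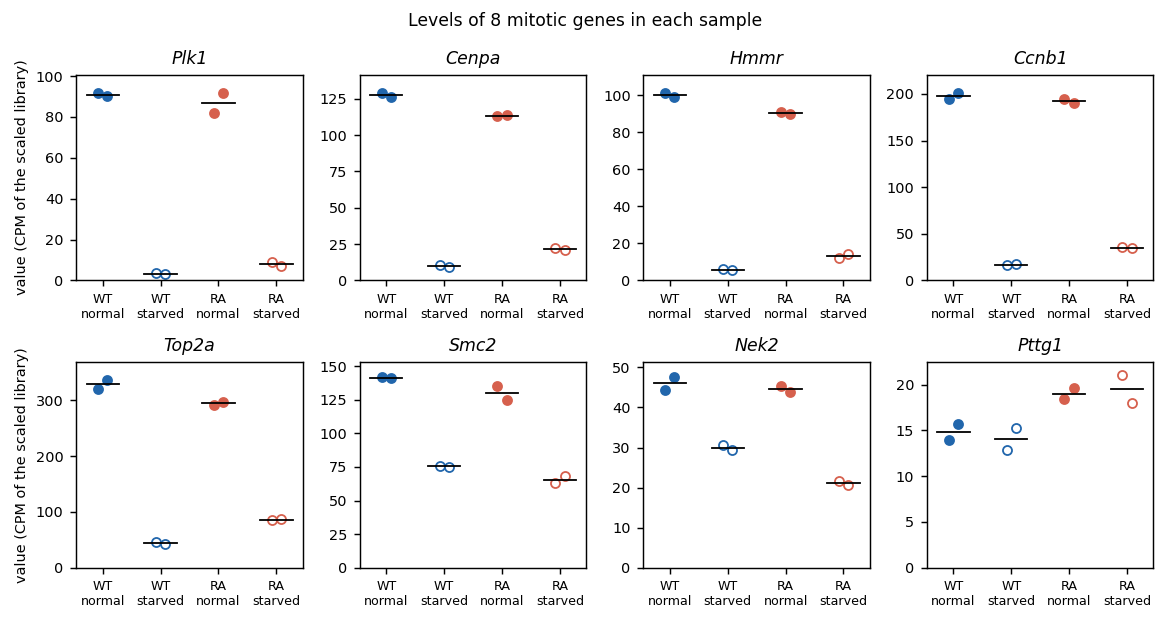
Value in each sample (points, in CPM of the scaled library; filled, normal medium; open, starved; blue, WT; red, RA) and group mean (bar, n = 2) for 8 genes, each on its own axis from 0. Plk1, Cenpa, Hmmr, Ccnb1 and Top2a were low in starved WT and higher in starved RA, Smc2 and Nek2 were lower in starved RA than in starved WT, and the points of Pttg1 overlap between the media.

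**Figure D4:**
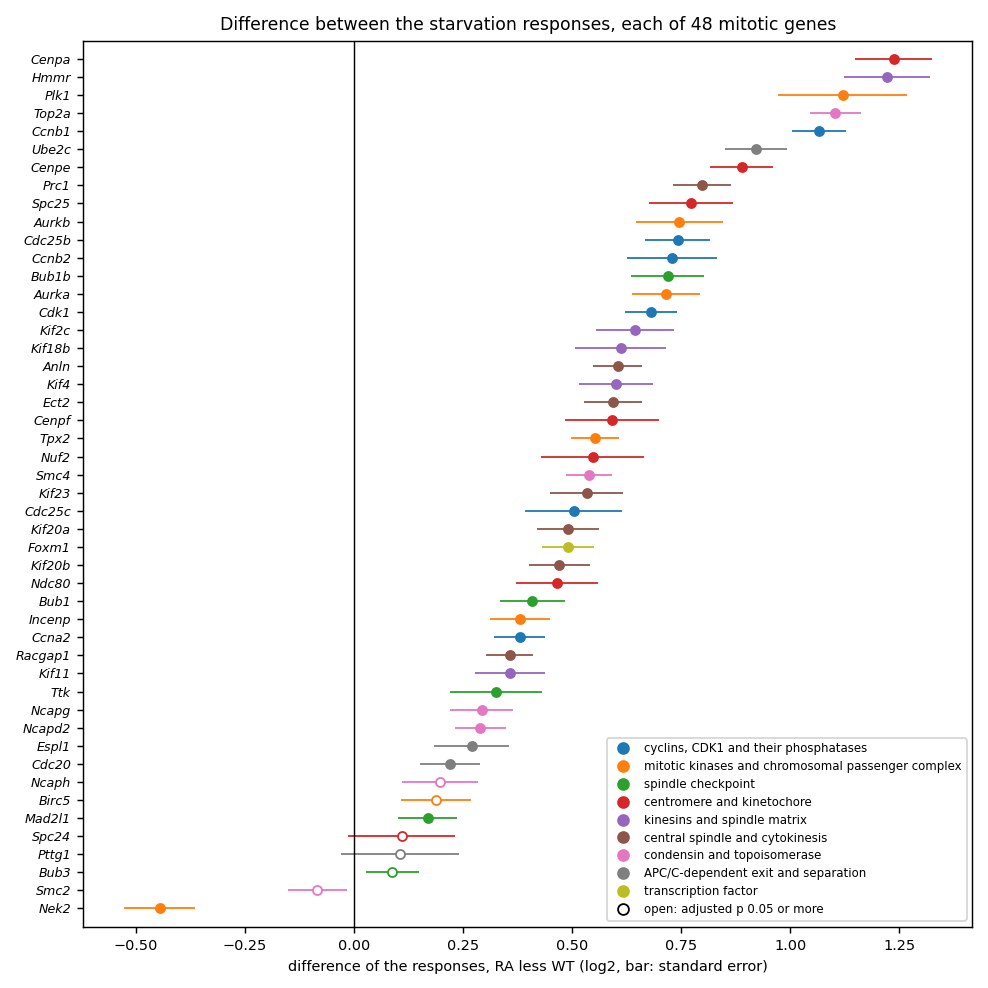
Change under starvation in RA less that in WT (log2, points, with SE bars) for each of the 48 genes, coloured by role; open points have an adjusted p of 0.05 or more. Values run from -0.45 for Nek2 to 1.24 for Cenpa, and 41 filled points lie above 0.

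Before starvation few of the genes differed between the lines. In normal medium 5 of the 48 genes were lower in RA than in WT (10.4%, against 2.95% of all genes) and 1 was higher (2.08%, against 6.68%). Top2a, Ncapd2, Incenp, Ect2 and Cdc25b were the lower ones, by log2 differences of -0.16 ± 0.041, -0.16 ± 0.041, -0.16 ± 0.048, -0.16 ± 0.047 and -0.17 ± 0.052 (adjusted p = 0.0248, 0.0212, 0.0499, 0.0419 and 0.0451), and Pttg1 was the higher one. These calls rest on single samples and on the fit: the count of 6 became 0 without WT normal replicate 1, 1 without WT normal replicate 2, 2 without RA normal replicate 2, and 3 without either of the starved RA samples, and it was 14 with edgeR on recovered reads. In all, 44 of the 48 differences were negative (44 to 46 under the other scalings and fits of all samples), with a median of -0.10 against 0.0075 over all genes. Cdc25c, Kif18b and Ttk had the lowest differences, -0.25 ± 0.078, -0.23 ± 0.074 and -0.22 ± 0.075, none of them called (adjusted p = 0.0521, 0.0671 and 0.0761). Bub3 and Mad2l1 had the highest after Pttg1, 0.07 ± 0.043 and 0.01 ± 0.048. The median ratio of RA to WT was 0.931.

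Under starvation most of the genes were higher in RA. In starved RA cells 43 of the 48 genes were higher than in starved WT cells (89.6%, against 30.8% of all genes higher and 32.1% lower) and 2 were lower, Nek2 and Smc2 (4.17%). The median ratio was 1.34, the median log2 difference 0.39 against -0.0081 over all genes. Hmmr, Cenpa, Plk1 and Ccnb1 exceeded 2-fold, at 2.31, 2.2, 2.4 and 2.09 times the starved WT level, against 5.45% of all genes; at an adjusted p under 1e-05, 26 of the 48 were called, against 22.2% of all genes. Spc24, Espl1 and Ttk were not called, with differences of -0.0045 ± 0.087, 0.07 ± 0.061 and 0.11 ± 0.075 (adjusted p = 0.967, 0.298 and 0.23). Of the 45 calls, 8 were lost in at least 1 of 19 other fits: Cdc20 (0.11 ± 0.048, adjusted p = 0.0492) in 12, Birc5 in 9, Ncaph in 5, Ncapg in 3, Kif11, Cdc25c and Ncapd2 in 2 each and Nuf2 in 1. Leaving out 1 sample lost Cdc20 for 6 of the 8 samples, all but the normal RA ones (0.08 to 0.14), Birc5 for each of the 4 starved samples (0.15 to 0.16), Ncaph without WT starved replicate 1 (0.15) or RA starved replicate 2 (0.10), Ncapg without WT or RA starved replicate 1 (0.10 and 0.12), Kif11 without RA starved replicate 1 (0.13), Cdc25c without RA starved replicate 2 (0.23) and Ncapd2 without WT starved replicate 2 (0.11). This comparison shares its starved samples with the responses above, so it is not separate evidence of them.

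The responses were also set beside the promoter motifs. The 31 genes with a CHR match had median log2 changes of -2.55 in WT and -1.94 in RA, and the 8 without had -2.21 and -1.85. The median difference between the responses was 0.60 with a match and 0.19 without, where the genes without were Ccnb1, Birc5, Nek2, Mad2l1, Cenpe, Nuf2, Ncaph and Pttg1. Among all 1731 tested genes with a CHR match the median changes were -0.042 in WT and -0.025 in RA. These medians are descriptions of few genes and were not tested.

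Other genes of cell division were followed in lists of related roles: 100 further mitotic genes, of which 99 were found and tested, and 39 genes of DNA replication and deoxynucleotide supply. Of the 99, 77 fell in WT (39.2% of all genes did) and 85 in RA (33.7% of all genes), with medians of -0.95 and -0.88. In what follows, above and below 0 count called genes, to be read against the 24.5% of all genes above 0 and the 26.1% below in the response in RA less that in WT. This difference was above 0 for 33 of the 99 and below 0 for 25, the latter near the share over all genes, with a median of 0.02 (-0.02 to 0.09 under 3 other scalings). Those of the spindle and cytokinesis came nearest to the 48 genes, with 13 of 16 above 0, none below and a median of 0.46 (0.39 to 0.53). Aspm, a spindle pole protein, led them: it was at 46 and 44.9 with glucose and 2.51 and 2.19 without it in WT, and 39.1 and 36.5 with glucose and 6.19 and 6.94 without it in RA, a difference of 1.43 ± 0.12 (adjusted p = 5.67e-08).

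The counts for the remaining mitotic roles lay closer to the shares over all genes, 24.5% above 0 and 26.1% below. Of the constitutive centromere network 7 of 17 were above 0 and 2 below, and the largest difference was that of Hjurp, the chaperone that loads CENP-A (0.70 ± 0.06, adjusted p = 6.18e-08). Of the outer kinetochore and corona 3 of 15 were above and 5 below, with Ska1 the furthest out (0.89 ± 0.19, adjusted p = 0.000802); both counts are near those shares. Among the other kinases and regulators 6 of 14 were above and 2 below, led by Melk (0.41 ± 0.11, adjusted p = 0.00401). APC/C subunits gave 3 above and 4 below of 13, also near those shares, with Cdc26 the furthest out at -0.42 ± 0.071 (adjusted p = 0.000114). Condensin II and cohesin gave none above and 5 below of 14, led by Ncaph2 at -0.45 ± 0.051 (adjusted p = 1.63e-06).

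Among the regulators of the programme and the genes of DNA replication, more were below 0 than above. Of 10 DREAM and B-MYB genes, the response in RA less that in WT was below 0 for 7 (26.1% of all genes) and above 0 for 1 (24.5% of all genes), with a median of -0.24 (-0.25 to -0.17 under the other scalings), and in starved cells 8 of 10 were lower in RA than in WT, against 32.1% of all genes. Lin54, a DNA-binding subunit that recognises the CHR, was at 29.3 and 29.7 with glucose and 29.5 and 28.7 without it in WT, and 30.9 and 29 with glucose and 18.2 and 19.1 without it in RA. Its starved samples were lowest in RA, a difference of -0.64 ± 0.087 (adjusted p = 1.32e-05). Of the 39 replication genes 28 fell in WT and 38 in RA, against 39.2% and 33.7% of all genes, with medians of -0.32 and -0.57. Their difference was below 0 for 26 and above 0 for 3, against 26.1% and 24.5% of all genes, with a median of -0.27 (-0.28 to -0.20). The difference between these lists and the 48 genes was not tested.

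**Figure D5:**
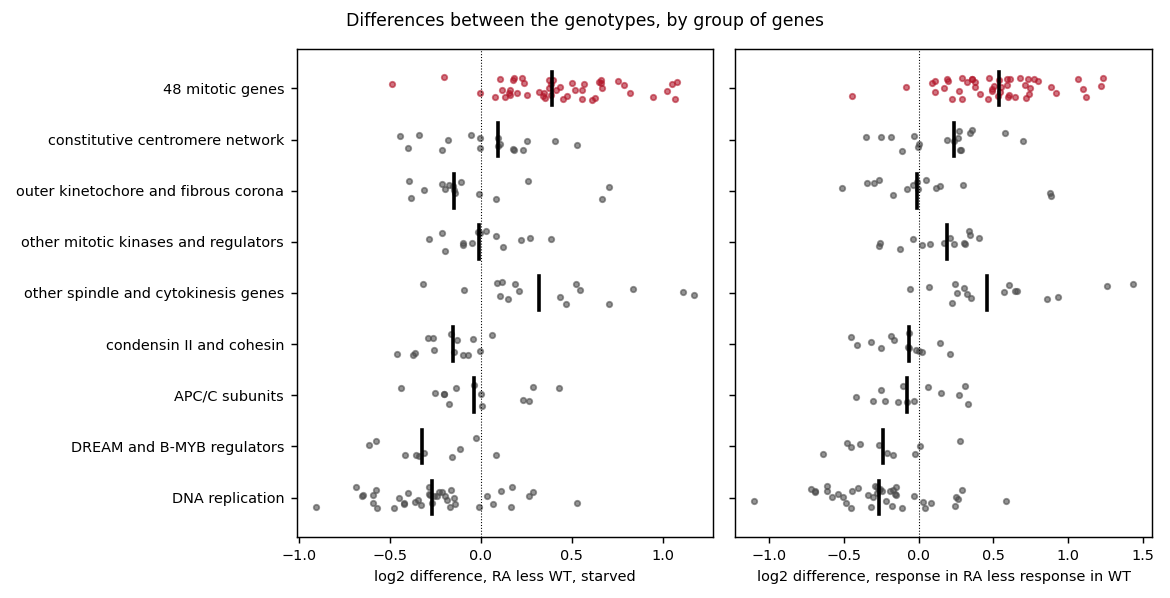
Log2 difference of RA less WT in starved cells (left) and of the response in RA less that in WT (right), 1 point per gene, for the 48 mitotic genes (red) and for the other lists (grey); bars mark medians. The medians of the 48 genes lie at 0.39 and 0.54, that of the other spindle and cytokinesis genes is closest to them, and those of the DREAM and B-MYB regulators and of DNA replication lie below 0.

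Of the 48 genes, 14 share exon bases with another gene in GENCODE M21 (GRCm38). The largest shares were those of Kif20a and Ube2c given above, 15.1% of Kif4 (with Pdzd11), 13.4% of Ncapg (with Lcorl), 12.7% of Cdc25c (with Gm3550), 12.5% of Ccna2 (with Exosc9) and 11.1% of Prc1 (with Rccd1), all on the opposite strand. Without a stated handling of strand, reads of such pairs cannot be told apart, and the values of these genes are uncertain to that extent.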

How the data were processed

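Polyadenylated RNA of 8 MEF samples was sequenced as paired ends on an Illumina HiSeq. Per the labels, the authors' processing notes name TopHat2 2.0.9, bedtools, edgeR and the mm9 genome; the read counter, annotation and strand handling are not given in the sources used here. The deposited values are a signal, the read count relative to a library size (CPM) that the authors scaled, with columns summing to 965845 to 1029723. The columns marked minus and plus were read as normal medium and starvation, as the study marks them. CPM had been planned for, and the same test was used. In each sample 100% of values were whole reads within 0.1, so reads were recovered; counting precision covers counting error only, and 3 reads equal a value of 0.0548 to 0.069. Between 78.2% and 80.5% of counts from 1 to 9 were even, so edgeR was also run on halved reads.

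Genes that reached a value of 1 in 2 or more samples were tested on log2(value + 1), which understates changes of low genes, with limma 3.58.1 in R 4.3.3 (a mean per group over all 8 samples, moderated variances with a trend, 2-sided, Benjamini-Hochberg adjustment over 16232 genes). The fit was also run on simulated counts with far fewer changed genes than these data, so that run does not gauge the calls given here. Alternatives used edgeR 4.0.16 and DESeq2 1.42.0 on recovered reads, other scalings, pseudocounts and filters, and left out each sample. SE is that of the fit; SD is between replicates. Per-sample values were given for 16 genes listed by role and for the 3 highest and 3 lowest of each of the 5 comparisons. For other lists, the rule was to name the gene with the largest interaction in a role, and per-sample values were given for Aspm and Lin54 only. A result that this rule selects is not reported here. The genes, roles and lists were chosen with earlier results of these data known. Same-numbered samples of different groups had correlations of deviations between -0.008 and 0.157, so numbers were not taken as pairs. Promoters came from RefSeq; 9 of the 48 genes had no entry in the table.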

Additional observations from a re-analysis of the deposited data

Results flagged for a closer look

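For 42 of the 48 genes the change under starvation differed between the WT and RA lines by the limma interaction test. The same test called 8207 of all 16232 genes. The log2 change in RA less that in WT was called above 0 for 41 (85.4%, against 24.5% of all genes). That share among genes that fell as deeply in WT was not computed. The log2 change in RA less that in WT is the value given for each gene below. This value was largest for Cenpa (1.24), Hmmr (1.22), Plk1 (1.12), Top2a (1.10) and Ccnb1 (1.07), followed by Ube2c (0.92), Cenpe (0.89), Prc1 (0.80), Spc25 (0.77), Aurkb (0.75), Cdc25b (0.74), Ccnb2 (0.73), Bub1b (0.72), Aurka (0.71), Cdk1 (0.68), Kif2c (0.64), Kif18b (0.61), Anln (0.60) and Kif4 (0.60). Values near the median were those of Ect2 (0.59), Cenpf (0.59), Tpx2 (0.55), Nuf2 (0.55), Smc4 (0.54), Kif23 (0.53), Cdc25c (0.50), Kif20a (0.49), Foxm1 (0.49), Kif20b (0.47) and Ndc80 (0.47). The lowest were those of Bub1 (0.41), Ccna2 (0.38), Incenp (0.38), Kif11 (0.36), Racgap1 (0.36), Ttk (0.33), Ncapg (0.29), Ncapd2 (0.29), Espl1 (0.27), Cdc20 (0.22) and Mad2l1 (0.17). Nek2 was below 0 (-0.45), with a deeper fall in RA. The calls of Cdc20, Ttk, Espl1 and Mad2l1 were lost in 3, 5, 5 and 11 of 18 other fits.

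Among the other mitotic genes, the furthest of each role differed between the lines as well, namely Aspm (1.43), Ska1 (0.89), Hjurp (0.70), Melk (0.41), Cdc26 (-0.42), Ncaph2 (-0.45) and Lin54 (-0.64).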

How the results depend on the processing

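Of 240 results for single genes (48 genes in 5 comparisons), 204 kept their side of the threshold in all of up to 19 other fits and 36 changed side in at least 1. No called gene changed sign, but the number of negative differences, which includes genes not called, shifted in some fits. The 6 calls in normal medium became 0 with no filter on low values, with variances moderated without a trend, at an adjusted p under 1e-05 or at 2-fold, 11 with a replicate block, 13 with quantile normalization, with only the groups compared or with DESeq2, 14 and 16 with edgeR on whole and halved reads, 18 with total-read scaling, and 0 to 9 when 1 sample was left out. The 45 calls between starved lines became 26 at 1e-05 and 4 at 2-fold (41 to 45 with 1 sample left out), and the 42 differences between responses became 18 and 5 (39 to 41). The 47 falls in each line stayed at 47 with any 1 sample left out. Medians moved to -0.15 (total-read) and -0.14 (quantile) in normal medium and to 0.29 (quantile) between starved lines. For the fall in WT they moved to -2.51 (pseudocount 0.1), -2.52 (total-read) and -2.37 (quantile), and in RA to -1.90 (pseudocount) and -1.89 (quantile). For the difference of responses they moved to 0.61 (total-read) and 0.44 (quantile). With 1 sample left out they spanned 0.38 to 0.44, -2.48 to -2.41 and 0.49 to 0.57 for starved lines, WT and the difference. The median log2 level of the 48 genes in a sample had a pooled SD between replicates of 0.0305. Stricter thresholds count fewer genes by construction; for the other changes the cause was not tested. The replicate block gave 45, 47, 47 and 43 calls for starved lines, WT, RA and the difference. With 2 samples a group, differences of the size of those in normal medium are at the limit of these data.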
